A study of Homo sapiens with 12 samples.

Results

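Summits of EGFR chimera binding that lay inside a protein-coding gene but away from its promoters were examined in 4 chromatin immunoprecipitation sequencing (ChIP-seq) lists. A summit was counted when it fell on chromosomes 1 to 22 or X, within the limits of a protein-coding gene of GENCODE release 44, and more than 1000 bp from the start of every transcript of a protein-coding gene. Of 2186 summits in the 4 lists, 136 met this rule, compared with 286 at promoters, 1419 outside protein-coding genes on the same chromosomes and 345 on other contigs. The 136 summits lay in 61 host genes.

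B2B1 cells, in which the immunoprecipitations were done, are 1 clone of MCF10A-5E, an established human breast epithelial line. They stably express an NGFR-EGFR-FRB chimera with a C-terminal GluGlu tag and an NGFR-Erbb2-FKBP chimera of rat Erbb2 with an HA tag, and both conditions carry both receptors. The minus AP group received ethanol vehicle and the plus AP group received 0.5 µM AP21967 (AP), a synthetic ligand that heterodimerizes the chimeras, for the last 24 h of a 7-day overlay culture. Each group had 2 GluGlu libraries, and the remaining 8 of the 12 libraries in the series, input chromatin and naive IgG among them, were not analysed here, so that the level of gene-body summits in a control immunoprecipitate is not given.

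ErbB receptors can be carried from the cell surface to the nucleus, where EGFR has been described as a chromatin-associated coactivator that lacks a classical DNA-binding domain. RNA polymerase II is spread over the whole body of an active gene and slows past the poly(A) signal, so that a factor travelling with it can be recovered from introns, exons and gene ends. Many small RNA genes of the splicing and ribosome-processing machinery sit inside the annotated limits of protein-coding genes, with promoters of their own.

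Sequences of GRCh38 at gene-body summits that recurred outside UTRs are given first. RNU2-1, on the minus strand at chr17:43233787-43233977, is 1 copy of an array of U2 small nuclear RNA genes inside CCDC200, the gene with the most gene-body summits, and is written in lower case.
RNU2-1: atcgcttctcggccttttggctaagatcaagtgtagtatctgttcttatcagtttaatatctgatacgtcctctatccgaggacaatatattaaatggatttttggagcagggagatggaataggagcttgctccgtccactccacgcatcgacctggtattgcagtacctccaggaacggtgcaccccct
Of the 12 U2 copies of 191 bases inside CCDC200, RNU2-1 included, 11 had the same sequence and the other was 99.5% identical to it.

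Introns and a coding exon of stress and inflammatory genes are shown next because each had summits of at least 2 libraries in that feature. The stretches below run from the first to the last summit of the gene in that feature, on the strand of the gene, with the summit bases in capitals. That of BIRC3 lies in intron 1 at chr11:102318566-102318740 on the plus strand, that of DUSP1 in intron 2 at chr5:172769917-172770096 on the minus strand, that of SOD2 in intron 2 at chr6:159690618-159690742 on the minus strand, and that of DDIT4 in the coding part of exon 3 at chr10:72275059-72275181 on the plus strand.
BIRC3 intron: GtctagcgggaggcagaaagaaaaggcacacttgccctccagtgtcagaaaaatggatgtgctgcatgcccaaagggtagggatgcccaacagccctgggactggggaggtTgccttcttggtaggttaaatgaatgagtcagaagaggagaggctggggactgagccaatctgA
DUSP1 intron: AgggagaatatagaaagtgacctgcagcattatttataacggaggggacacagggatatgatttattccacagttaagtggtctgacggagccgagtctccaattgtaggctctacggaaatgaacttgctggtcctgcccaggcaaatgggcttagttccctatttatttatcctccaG
SOD2 intron: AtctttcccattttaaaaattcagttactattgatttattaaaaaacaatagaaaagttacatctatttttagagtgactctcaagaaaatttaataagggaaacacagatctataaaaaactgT
DDIT4 coding exon: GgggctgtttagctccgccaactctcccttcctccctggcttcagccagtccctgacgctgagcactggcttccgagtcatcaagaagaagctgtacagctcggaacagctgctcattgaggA
These stretches differed widely in base composition, from a GC content of 23.2% in SOD2 to 57.7% in DDIT4. The BIRC3 stretch held the AP-1 motif TGANTCA, counted as 2 matches because the motif was found on each strand, and the other 3 held none.

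Gene-body summits were a small share of every list, below the share of such bases in the sequence. Gene bodies away from promoters made up 39.3% of the chromosomes on which summits were counted. Leaving out summits on other contigs, gene-body summits were 5.84% and 14.3% in minus AP replicates 1 and 2. They were 5.62% and 14.5% in plus AP replicates 1 and 2. The counts that follow are of the full lists. Minus AP replicate 1 had 34 among 739 summits (4.60%, 95% Wilson interval 3.31 to 6.36), and minus AP replicate 2 had 8 among 56 (14.3%, 7.42 to 25.7). Plus AP replicate 1 had 51 among 1094 (4.66%, 3.56 to 6.08), and plus AP replicate 2 had 43 among 297 (14.5%, 10.9 to 18.9). The share followed the replicate number and not the condition. It averaged 9.44% ± 6.85 in the minus AP pair and 9.57% ± 6.94 in the plus AP pair (SD, n = 2 each), a difference of 0.127 percentage points that was far smaller than the spread between replicates (two-sided exact permutation p = 0.667, where the smallest possible with 2 against 2 libraries is 0.333). The labels call the replicates biological but do not say how their cultures were separated, and the p-value measures the spread between these libraries. The replicate 1 lists were the longer ones and also stood apart in repeated sequence, in that 157 and 187 of their summits lay on other contigs against 0 and 1 in the replicate 2 lists.

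Exons held more of the summits than their share of the sequence. Of the 136 gene-body summits 43 (31.6%) lay in an exon of some transcript, whereas exons made up 6.17% of the 1190 Mb of gene body from which a summit could be drawn. The exonic summits were mostly in 3′ UTRs, with 36 (26.5%, against 3.24% of the sequence), 5 were in coding exons (3.68%, against 1.98%) and 2 in exons of noncoding transcripts. No summit lay in a 5′ UTR that was not a coding exon or 3′ UTR of another transcript, where 0 of 136 allows at most 2.75% (Wilson interval) and where the distance rule itself removes most such bases. The last exon of the canonical transcript held 39 summits, and its first intron held 16. These are counts of summits, so that a place found in several libraries counts more than once. The 136 summits formed 77 places when those within 1000 bp of each other were joined.

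The split between exon and intron also followed the replicate number. In replicate 1, the minus AP library had 7 exonic summits among 34 (20.6%) and the plus AP library 13 among 51 (25.5%). In replicate 2, the minus AP library had 4 among 8 (50%) and the plus AP library 19 among 43 (44.2%). The plus AP mean of 34.8% ± 13.2 and the minus AP mean of 35.3% ± 20.8 (SD, n = 2 each) differed by less than the spread between replicates (exact permutation p = 1). Pooled by replicate number, 23.5% of the summits of replicate 1 and 45.1% of those of replicate 2 were exonic. The gap was smaller without CCDC200, whose summits were all intronic and all in replicate 1. Without that gene, left out after seeing the data, the exonic shares were 36.8% and 34.2% in replicate 1 (minus AP, plus AP). They were 50% and 44.2% in replicate 2.

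**Figure D1:**
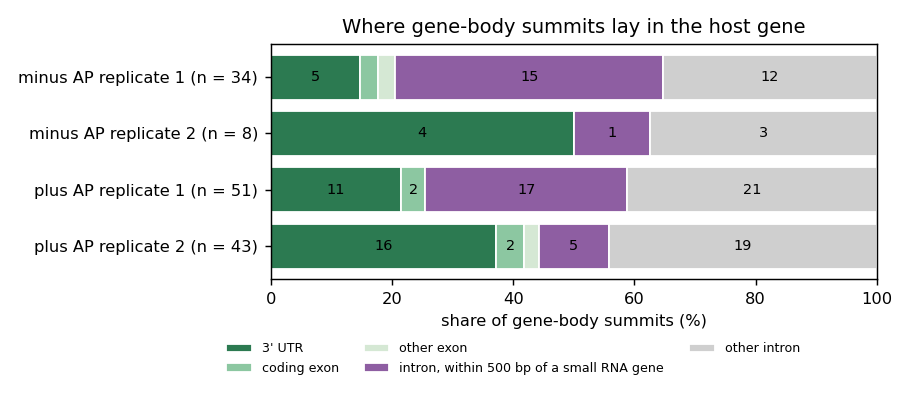
Share of gene-body summits of each library (%, horizontal axis) by place in the host gene, with the number of summits written in the wider segments. The 3′ UTR segment holds 14.7% and 21.6% of the summits in the replicate 1 libraries and 50% and 37.2% in the replicate 2 libraries, while introns at small RNA genes hold 44.1% and 33.3% against 12.5% and 11.6%.

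Gene ends were close for many of the exonic summits. Within 1000 bp of the 3′ limit of the host gene lay 30 of 136 summits (22.1%), where such bases made up 1.42% of the gene-body sequence. The minus AP libraries had 4 of 34 and 3 of 8 such summits, and the plus AP libraries 9 of 51 and 14 of 43. The means, 24.6% ± 18.2 for minus AP and 25.1% ± 10.5 for plus AP (SD, n = 2 each), differed by less than the spread between replicates (exact permutation p = 1). The summit nearest to a gene end was that of ID1, 8 bp inside the gene in plus AP replicate 1, followed by TXNIP at 18 bp and ID3 at 25 bp in plus AP replicate 2. ID1 and ID3 encode helix-loop-helix proteins that hold back differentiation factors, and TXNIP encodes a thioredoxin-interacting protein that restrains glucose uptake.

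Exonic summits and short genes went together. Host genes under 10 kb held 36 summits in 17 genes, of which 32 (88.9%) were exonic and 22 lay within 1000 bp of the gene end. Host genes of 10 to 100 kb held 74 summits, of which 6 were exonic and 35 lay within 500 bp of a small RNA gene. Those of 100 kb or longer held 26 summits, of which 5 were exonic. The rule on distance from starts leaves a short gene little room away from its end, although RPS14 and KRT6A, both under 10 kb, held summits 2402 and 1627 bp from theirs. The FTH1 summit lay 4590 bp from the annotated gene end, which a longer transcript sets, but 23 bp from the end of the canonical transcript. The median distance to the end was 765 bp in the shortest class against 75750 bp in the longest.

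**Figure D2:**
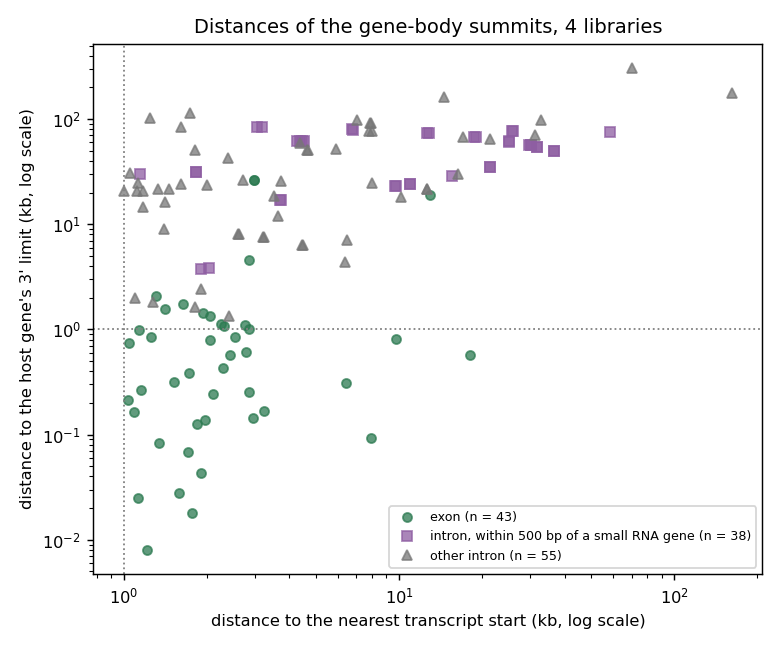
Distance of each of the 136 gene-body summits to the nearest protein-coding transcript start (horizontal, kb, log scale) and to the 3′ limit of its host gene (vertical, kb, log scale), with dotted lines at 1 kb. The 43 exonic summits lie mostly near or under the horizontal line, and the 38 intronic summits at small RNA genes lie above it.

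By their annotated limits, the host genes were not short as a group. Their median length was 43049 bp, against 27476.5 bp for all 19970 protein-coding genes, with 17 of 61 under 10 kb (27.9%, against 25.6% of all genes) and 17 of 61 at 100 kb or longer (27.9%, against 18.3%). Genes under 10 kb make up only 1.79% of the summed bases of protein-coding genes but held 26.5% of the summits, and genes of 100 kb or longer make up 67.3% of the bases but held 19.1%. These shares of bases and the values for all genes include sequence within 1000 bp of starts, where no gene-body summit can lie. The part of the distance rule in these comparisons was not tested. The median length of the host genes was 57767 bp in minus AP replicate 1, 66159 bp in minus AP replicate 2, 36280 bp in plus AP replicate 1 and 33358 bp in plus AP replicate 2. Both plus AP values lay below both minus AP values, 34819 ± 2066 bp against 61963 ± 5934 bp (SD, n = 2 each), which gives an exact permutation p of 0.333, the smallest that the design allows. With canonical transcripts only, or with scores of at least 2, this difference changed its sign. With canonical transcripts only, the medians fell to 23046.5 and 4982.5 bp without AP and 21920 and 12112 bp with AP. The median of all genes by canonical transcript is not given, so the comparison with all genes holds for annotated limits only.

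**Figure D3:**
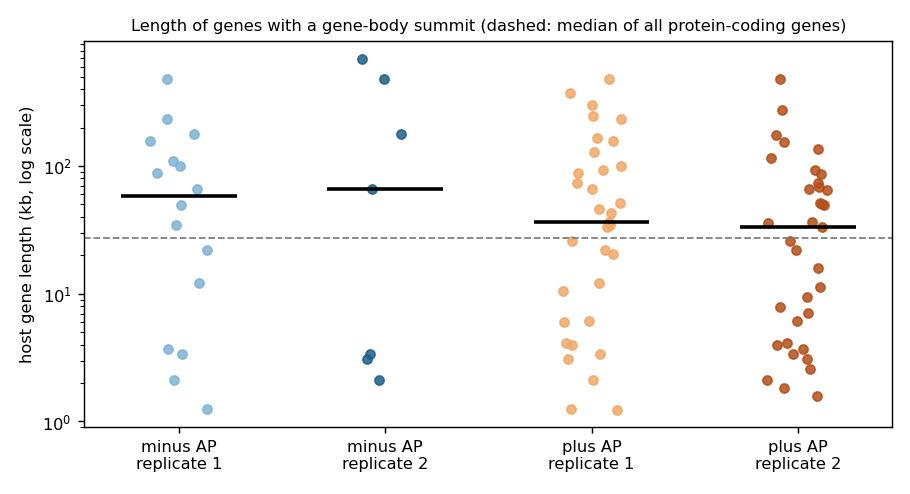
Length of each host gene with a gene-body summit (kb, log scale) by library, where each point is a gene, the black bars are medians and the dashed line is the median of all protein-coding genes. The points of each library span short and long genes on both sides of the dashed line, and the black bars of the plus AP libraries are lower than those of the minus AP libraries.

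Of the 4 genes found in all 4 libraries, DDIT4, PARP16 and SPIDR are described here. Besides the 4, MTSS1 was found in both minus AP libraries, and ARMH1, BIRC3, DUSP1, EEF1A1, RCC1, SOD2, TMEM107, TNS4 and TXNIP were found in both plus AP libraries, for totals of 5 and 13 genes. The plus AP lists held 94 gene-body summits against 42 without AP, so that the longer count of genes was drawn from longer lists. It also depends on the promoter limit, since RCC1, SOD2 and TXNIP had promoter summits in both minus AP libraries. BIRC3 and DUSP1 each had a promoter summit in 1 minus AP library and a gene-body summit in the other. Without AP, EEF1A1 had a promoter summit in replicate 2 alone, and ARMH1, TMEM107 and TNS4 had neither kind. By replicate number, 12 genes were found in both replicate 1 libraries and 5 in both replicate 2 libraries. Most host genes, 39 of 61, were found in 1 library only.

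At DDIT4, which encodes the stress-induced mTORC1 inhibitor REDD1, the summit positions differed between conditions. Without AP the gene-body summit lay in the 3′ UTR, 1980 bp from the gene start in replicate 1 and 1729 bp in replicate 2, and each minus AP library also listed a promoter summit, at 228 bp and at 1 bp upstream. With AP the gene-body summit lay in the coding part of exon 3, at 1140 and 1262 bp, and neither plus AP library listed a promoter summit. These summits lay 1135 and 1257 bp from the nearest start, not far past the limit of 1000 bp. A summit does not give the width of a peak, so a missing promoter summit does not show that the promoter was unbound. The 3′ UTR summits without AP ranked 678 of 739 and 37 of 56 by score, and the promoter summits of the same libraries ranked 177 of 739 and 6 of 56. The coding-exon summits with AP ranked 192 of 1094 and 4 of 297, so that each library had a DDIT4 summit in the upper part of its list. A further summit lay downstream of DDIT4 in every library, between 137 and 616 bp beyond its end. The coding stretch between the plus AP summits is printed above, and no test was made at this gene, which was named because it recurred.

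**Figure D4:**
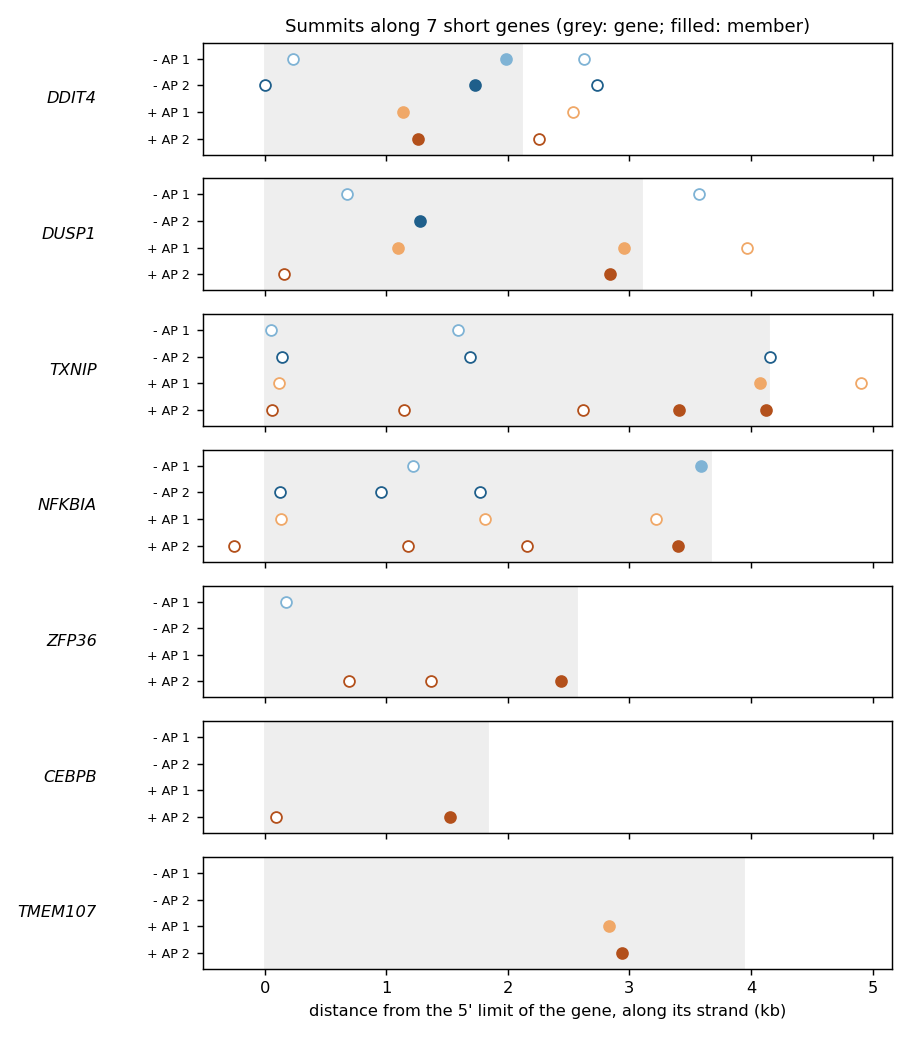
Summits of the 4 libraries along 7 short genes, as distance from the 5′ limit of the gene (kb), where grey marks the gene, filled points are gene-body summits away from promoters and open points are the other summits in or within 1 kb of the gene. At DDIT4 the filled points of the plus AP libraries lie at 1140 and 1262 bp and those of the minus AP libraries at 1729 and 1980 bp.

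SPIDR, a 475429-bp gene for a scaffold protein of DNA repair, was the longest of the recurring genes, and its summits were all at its 3′ end. They lay 245 bp from the end in minus AP replicate 1, 431 bp in minus AP replicate 2, 43 bp in plus AP replicate 1, and 577 and 1335 bp in plus AP replicate 2. The transcript start nearest to most of them was that of CEBPD, an intronless gene for a stress-responsive C/EBP transcription factor that ends close to SPIDR. CEBPD itself held a gene-body summit in both replicate 1 libraries, 214 bp from its end without AP and 163 bp with AP. The lists cannot assign a summit between these ends to either gene. Its relative CEBPB held 1 gene-body summit, in plus AP replicate 2, 315 bp from its end.

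Neighbouring genes met at further summits. A summit counted inside HOOK2 in minus AP replicate 1 lay outside its canonical transcript and within 1000 bp of JUNB, an AP1 gene, and the 2 summits inside PARP10 in plus AP replicate 2 were nearest to the start of GRINA. Within 1000 bp of another protein-coding gene lay 6 of the 136 summits. Outside the canonical transcript of the host gene lay 49 summits (36.0%), among them all 4 at PARP16, where only longer transcripts reach the small RNA gene RNU5A-1.

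Of 19 listed target genes of NF-kappaB, the transcription factor of inflammatory signalling, 4 held a gene-body summit, BIRC3, NFKBIA, SOD2 and IL1A, and 3 of them did so in more than 1 library. BIRC3, an inhibitor of cell death, had its intron 1 summit in minus AP replicate 1 (score rank 535 of 739), plus AP replicate 1 (539 of 1094) and plus AP replicate 2 (281 of 297). SOD2, the mitochondrial superoxide dismutase, had its intron 2 summit at a low rank in both plus AP libraries, 881 of 1094 and 281 of 297. NFKBIA, the inhibitor that NF-kappaB induces against itself, had a summit 83 bp from its annotated end in minus AP replicate 1 and 268 bp from it in plus AP replicate 2, both in an exon of a noncoding transcript. Both lay past the end of the canonical transcript. IL1A, a cytokine precursor, had a 3′ UTR summit in plus AP replicate 1 only. Minus AP replicate 2, with its 8 gene-body summits in 7 genes, listed none of these genes away from promoters.

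Stress and growth-factor response genes held gene-body summits in introns and near gene ends. Of 26 metabolic and oxidative stress genes, DDIT4, TXNIP and FTH1 held gene-body summits, the last of them, for ferritin heavy chain, in plus AP replicate 2. TXNIP had 3′ UTR summits 69 bp from its end in plus AP replicate 1 and 18 and 737 bp from it in plus AP replicate 2. In minus AP replicate 2 a summit lay 4160 bp from the TXNIP start, just past the end of the 4145-bp gene, and so was not counted. Of 28 immediate-early and AP1 genes, 2 held gene-body summits, DUSP1 and ZFP36, while 8 had promoter summits alone. DUSP1, the phosphatase that switches off MAP kinases, had an intron 2 summit in minus AP replicate 2 and in plus AP replicate 1, and a 3′ UTR summit in both plus AP libraries, 143 and 257 bp from the end. ZFP36, whose product destabilises inflammatory mRNAs, had a summit 127 bp from its end in plus AP replicate 2.

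Keratin genes, which mark the basal and activated states of these epithelial cells, held 3 gene-body summits in 3 of 14 genes, none of them in more than 1 library. KRT5 had a 3′ UTR summit 28 bp from its end and KRT16 a summit in a coding exon, both in plus AP replicate 1, and KRT6A had a summit in intron 6 in plus AP replicate 2. Just past the end of KRT5, and so not counted, lay summits of the other 3 libraries, at 169 bp in minus AP replicate 1, 7 bp in minus AP replicate 2 and 323 bp in plus AP replicate 2. KRT5 was otherwise covered by summits counted at promoters, because transcript starts lie along the gene. EEF1A1, for the elongation factor that delivers tRNA to the ribosome, was the only 1 of 34 listed translation factors and ribosomal proteins with a gene-body summit, in both plus AP libraries, while 9 had promoter summits alone. RPS14, a ribosomal protein gene outside that list and named after its values were seen, had an intron 4 summit in plus AP replicate 2. The 3′ UTR summits of EEF1A1 lay 26526 and 26537 bp from the annotated gene end, which a longer transcript sets, but 84 and 95 bp from the end of the canonical transcript. A further EEF1A1 summit in plus AP replicate 2, which ranked 37 of 297, lay past the end of the canonical transcript. PKP1 of 23 adhesion genes and RCC1 of 22 nucleocytoplasmic transport genes completed the listed hosts. Of the 4 RCC1 summits, 3 also lay inside SNHG3, a noncoding gene, and the lists cannot assign them to either gene. None of the 22 ErbB receptor, ligand and feedback genes, 18 matrix, 27 cytoskeletal, 18 heat-shock, 28 splicing or 17 replication-dependent histone genes held any, although 1, 1, 3, 3, 6 and 5 of them had promoter summits. A gene shorter than 1000 bp cannot hold a gene-body summit under the distance rule. The lengths of these genes are not given, so an absence, as in the histone list, may come from the rule alone. H3-3B, a replication-independent histone gene outside the list and also named after its values were seen, had a 3′ UTR summit 793 bp from its end in plus AP replicate 2. In all, 15 of the 296 listed genes (5.07%) and 61 of all 19970 protein-coding genes (0.305%) held a gene-body summit, and the lists were assembled with results of these data known.

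Genes with an intronic summit in both plus AP libraries also included TNS4, for a focal adhesion tensin, with summits 1124 and 2013 bp from its start in replicate 1 and 1610 bp in replicate 2, all in intron 1. MTSS1, for an actin-binding membrane protein, had summits in intron 3 of both minus AP libraries 201 bp apart and in neither plus AP library.

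Small RNA genes lay beside 41 of the 136 summits (30.1%), within 500 bp, although such sequence made up 0.285% of the gene-body sequence. They numbered 15 of 34 and 1 of 8 without AP and 18 of 51 and 7 of 43 with AP. Of the 41, 26 lay at the U2 genes inside CCDC200, all in the replicate 1 libraries. Inside a small RNA gene lay 23 summits. RNU5A-1, a U5 small nuclear RNA gene inside an intron of PARP16, was the one found in all 4 libraries, whose summits fell on it or within 500 bp past its end. Its summit scores ranked 578 of 739 and 22 of 56 in the minus AP libraries, and 313 of 1094 and 30 of 297 in the plus AP libraries. All 75-bp sequences around these 4 summits occurred once in the genome.

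Other small RNA genes were found in both plus AP libraries or in both replicate 1 libraries. RNU5F-1, another U5 gene, inside intron 6 of ARMH1, had a summit in both plus AP libraries (rank 881 of 1094 and 37 of 297). SNORD118, the U8 small nucleolar RNA gene that acts in ribosomal RNA processing, lies in the 3′ UTR of TMEM107 and held a summit within it in both plus AP libraries (972 of 1094 and 67 of 297). SNORA73B, a small nucleolar RNA gene in an intron of RCC1, the nucleotide exchange factor of Ran, had a summit before it in both plus AP libraries, by 309 and 305 bp, and a further summit 171 bp past it in replicate 2. These summits at SNORA73B also lay inside the noncoding gene SNHG3. RNU1-2, a U1 gene inside CROCC, had summits in both replicate 1 libraries, which ranked 353 of 739 without AP and 151 of 1094 with AP. A U3 gene in TEX14 had a summit in plus AP replicate 2 only.

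CCDC200 held more gene-body summits than any other gene, 28 of the 136, and all belonged to the replicate 1 libraries. The annotated gene spans 13 U2 genes with a median spacing of 5505.5 bp, and 26 of its summits lay within 500 bp of a U2 gene, 17 of them inside. Each of the 13 had a summit within 500 bp, 12 of them in both replicate 1 libraries. The highest-scoring gene-body summit of plus AP replicate 1 was here, with a score (−log10 q-value) of 73.8. At least 72.8% of the 75-bp sequences around each of the 28 summits occurred elsewhere in the genome, and the part of repeated sequence in their absence from the replicate 2 lists was not tested.

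**Figure D5:**
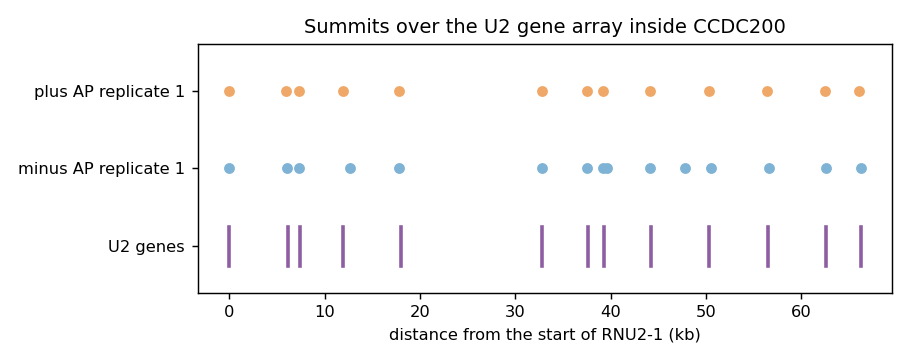
Positions of the gene-body summits of the 2 replicate 1 libraries over the U2 gene array inside CCDC200 (horizontal axis, distance from the start of RNU2-1 in kb), with the annotated U2 genes as bars. Each of the 13 bars has a summit of at least 1 library above it, and the replicate 2 libraries listed none.

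Repeated sequence touched other hosts of the replicate 1 libraries. DUX4, a germline transcription factor gene of the macrosatellite repeat at the end of chromosome 4, held 3 summits without AP and 4 with AP, among them the highest-scoring gene-body summit of minus AP replicate 1 at 57.7. Windows in which at least 90% of the 75-bp sequences were repeated numbered 11 in each replicate 1 library and 0 in each replicate 2 library, and lay in CCDC200, ACTN2, INPP5A and SNPH. Windows in which every such sequence occurred once made up 41.2% of the gene-body summits of replicate 1 and 98.0% of those of replicate 2. MAP3K15, a kinase gene, had an intron 6 summit in both replicate 1 libraries, 32 bp apart, which ranked 72 of 739 and 96 of 1094 and in whose windows 52.5% of the sequences were repeated.

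Genes with several summits were few outside these cases. Over the 4 lists together, 38 host genes held 1 summit, 10 held 2 and 5 held 3, and 10 genes accounted for 71 of the summits. Among those were CCDC200 (28), DUX4 (7), SPIDR (5), DDIT4, DUSP1, PARP16 and RCC1 (4 each), and BIRC3 and CROCC (3 each). Within a library, several summits in the same gene were found in 4 of 16, 1 of 7, 5 of 33 and 6 of 37 host genes, or 19.6% ± 7.58 without AP and 15.7% ± 0.753 with AP (SD, n = 2, exact permutation p = 1). Host genes that also had a promoter summit in the same library numbered 4 of 16, 2 of 7, 10 of 33 and 13 of 37, or 26.8% ± 2.53 without AP and 32.7% ± 3.42 with AP (SD, n = 2, exact permutation p = 0.333).

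Libraries differed in how many gene-body summits lay near a summit of another library. Those within 1000 bp of each other formed 77 places, of which 42 held gene-body summits of 1 library, 30 of 2, 1 of 3 and 4 of all 4. Near a summit of some other library, of whatever kind, lay 98 gene-body summits (72.1%), made up of 31 of 34 and 7 of 8 in the minus AP libraries, 39 of 51 in plus AP replicate 1 and only 21 of 43 in plus AP replicate 2. CCDC200 gave 27 of the 98, and 28 lay near summits of all 3 other libraries. Of the 34 summits of minus AP replicate 1, 30 lay near a summit of plus AP replicate 1 and 9 near a summit of minus AP replicate 2.

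The far introns of long genes were reached by few summits. The distance to the nearest start had a median of 3117.5 bp, and 44 summits lay within 2000 bp, 86 within 5000 bp and 102 within 10000 bp. The farthest from a start was that in intron 3 of CDH4, a cadherin gene, at 162362 bp in minus AP replicate 2, and the farthest from a gene end was that in intron 1 of SH3RF3, a ubiquitin ligase gene, at 305198 bp in plus AP replicate 1. Neither was found in a second library.

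Scores of gene-body summits were compared with those of promoter summits within each list. The median score percentile within a list was higher in gene bodies than at promoters by 22.4 points in minus AP replicate 1 and by 8.14 points in plus AP replicate 1, lower by 15.2 points in minus AP replicate 2, and equal in plus AP replicate 2. The mean difference was 3.83 ± 15.7 points (SD, n = 4, exact sign-flip permutation p = 0.75), where even a common sign in 4 libraries cannot reach 0.05. Without the repeated windows it was −2.19, and with scores of at least 2 it was 12.5, higher in gene bodies in 4 of 4 libraries, with the smallest p that 4 libraries allow. The highest-scoring gene-body summits of the replicate 2 libraries were those of DUSP1, at 5.79 without AP, and of DDIT4, at 16.2 with AP.

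The windows of 501 bp around gene-body summits held less GC than those around promoter summits in all 4 libraries. The difference in median GC content was −1.20, −15.6, −5.39 and −17.9 percentage points, and its exact sign-flip p was the smallest that 4 libraries allow, which cannot fall below 0.05. Leaving out repeated windows, the median GC content was 46.9% over 114 gene-body summits and 58.7% over 284 promoter summits, and it was 40.5% over 59392 windows spaced along the same gene-body sequence. The GC box GGGCGG, on either strand, was in 26.3% of the unrepeated gene-body windows, 57.7% of the promoter windows and 6.47% of the spaced windows. The AP-1 motif TGANTCA was in 7.89%, 7.75% and 14.8%, and the E-box CACGTG in 1.75%, 9.15% and 4.54%. The short element TNTTT, tied to nuclear EGFR, was in 94.7% of gene-body windows and 98.9% of spaced windows, so that it marks almost any window of this length. The NF-kappaB motif was in 10.5%, 21.5% and 6.29%. By library, the GC box was in 43.5% and 25% (2 of 8) of the unrepeated gene-body windows in minus AP replicates 1 and 2. It was in 27.5% and 16.3% in plus AP replicates 1 and 2. These shares describe letters in windows that differ in GC content, and no test was made of them.

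The limit of 1000 bp cut through summits of like kind. The members nearest to a start were those of BIRC3 in plus AP replicate 2 at 1003 bp (score 1.90) and of CEBPD in minus AP replicate 1 at 1037 bp (score 3.18). Just inside the limit, and so counted at promoters, were those of HOOK2 in plus AP replicate 1 at 996 bp (score 5.85) and of RAB26 in plus AP replicate 2 at 983 bp (score 9.06).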

How the data were processed

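Summit lists of 4 GluGlu ChIP-seq libraries were analysed, with conditions and replicate numbers taken from the sample labels. Paired-end reads of 75 bp had been mapped by the authors to GRCh38 (Bowtie2 2.2.9), who kept uniquely mapped reads without duplicates, and called peaks in each library separately with MACS2 2.2.7.1 at default settings. The methods of the study name input chromatin as the control for these calls while its results speak of naive IgG, so the background behind each score is uncertain. Per the labels and the methods of the study FastQC 0.11.5 was used for quality. Each deposited summit has a score, −log10 of its q-value, as the authors obtained it from MACS2. Scores were used as ranks within a list, because depth is unknown. Intervals are 95% Wilson intervals, treat summits as independent and cover counting error only.

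Gene limits, exons and transcript starts were taken from GENCODE 44, a later annotation than that of the study. A summit inside several genes was counted for each of them in lists of genes and for 1 of them where a feature or length is given. Canonical transcripts are those tagged so by GENCODE. Small RNA genes comprised snRNA, snoRNA, scaRNA, miRNA and related types. Copies of each 75-bp sequence within 250 bp of a summit were counted in the reference, both strands included and alternate haplotypes left out. Background shares are shares of bases, or of windows every 20000 bp, in the same gene-body sequence. Computations used Python 3.11.15 with numpy 2.4.6 and scipy 1.17.1, and figures matplotlib 3.10.9. The scripts were tested on simulated data.

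Conditions were compared over libraries with two-sided exact permutation tests, and values within all libraries by exact sign flips. Genes were named when they recurred, were among the 10 with most summits, held the best-scoring, nearest or farthest summits or the shortest or longest host, belonged to a gene list or lay at a small RNA gene. The members, gene lists and this rule were chosen with earlier results of these data known. Alternatives changed the distance limit, transcripts, merging, scores, list length, repeated windows, small RNA genes, chromosomes and replicates. Input and IgG libraries were not analysed here. Sequences at some summits and 1 host gene counted in the totals are not reported here. The replicate numbers were not shown to mark a shared culture.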

Additional observations from a re-analysis of the deposited data

How the results depend on the processing

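Differences between conditions in the shares of summits in gene bodies, in exons and near gene ends were small against the spread of the libraries. So was that in the share of genes with several summits. Those in median host length and in the share of host genes with a promoter summit were larger than the SD of either group. An exact permutation p below 0.333 was not possible under any alternative, so these p-values cannot decide whether the conditions differ. The share of summits in gene bodies (difference 0.127 percentage points, plus AP minus minus AP) turned to −2.03 with starts more than 2000 bp away, −0.887 with 5000 bp, −0.0431 with summits merged within 500 bp and −0.113 without summits near small RNA genes, and ran from −4.78 to 5.03 when 1 library was left out. The exonic share (−0.456) turned to 2.59 with 2000 bp, 21.1 with 5000 bp, 4.55 with canonical transcripts, 0.605 after merging and 8.81 with scores of at least 2, and ran from −15.2 to 14.2 with 1 library left out. The share near gene ends (0.470) turned to −0.133 after merging, −0.263 without summits near small RNA genes, −1.16 without CCDC200 (chosen after seeing the data), −9.45 within 500 bp of the end and −6.40 within 2000 bp, and ran from −12.4 to 13.3 with 1 library left out. The share of host genes with a promoter summit (5.93) turned to −4.17 with 5000 bp, −9.72 with canonical transcripts and −3.64 with scores of at least 2. Median host length (−27144 bp) turned to 3001.5 bp with canonical transcripts and 7504 bp with scores of at least 2. The share of genes with several summits (−3.96) turned to 3.94 with 500 bp, 3.94 with canonical transcripts and 5.41 with scores of at least 2, and ran from −9.32 to 1.4 with 1 library left out. The percentile difference to promoters (3.83) turned to −7.84 with canonical transcripts, −2.19 without repeated windows, −9.13 without summits near small RNA genes and −5.35 without CCDC200, and ran from −2.35 to 10.2 with 1 library left out. Genes in both minus AP libraries (5) became 1 with 5000 bp, 8 with canonical transcripts and 0 among the 56 highest-scoring summits of each list. Genes in both plus AP libraries (13) became 5 with 2000 bp, 0 with 5000 bp and 0 among the 56. Genes in all 4 (4) became 2 with 2000 bp, 0 with 5000 bp, 7 with canonical transcripts and 0 among the 56. Leaving out a library gives no value for genes found in every library of a set. The cause of these changes was not tested. With the replicate block, the share of summits differed by 0.0610 and 0.192 points within replicates 1 and 2 (mean 0.127, exact sign-flip p = 0.5, the smallest possible), and the block changed no call. Depth is unknown, and a list of 56 summits gives only 8 gene-body summits in minus AP replicate 2, so a gene missing from that list was not detectable at the threshold of the caller, which does not show that it was unbound.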
